A study of Bos taurus with 90 samples.

Results

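ENSBTAG00000044027 and ENSBTAG00000002854 are 2 of the 27270 bovine genes counted in mural granulosa cells, cumulus cells and oocytes of single antral follicles. They were chosen because their read counts in mural granulosa cells were lower after the small follicle stage, so the stage values in these cells are given as a description without a test. Both genes were among the 15131 genes with a CPM (counts scaled by the total of the library) above 1 in at least 15 libraries of one cell type. The tables used here give no gene symbols for these identifiers, so their roles, positions and sequences are not given, and their CPM are not compared with each other because CPM take no account of gene length.

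The study sampled ovaries of slaughtered Bos taurus cows. It took mural granulosa cells (MGCs), the cumulus cells (CCs) and the oocyte from each of 30 follicles without treatment, giving 90 RNA-seq libraries. Small follicles measured 3.1 to 3.8 mm, medium follicles 6.2 to 7.1 mm and large follicles 9.6 to 11.6 mm, with 10 follicles in each class. MGC libraries were made from extracted total RNA as bulk libraries, and CC and oocyte libraries were amplified by SMART-seq2, so protocol and cell type cannot be told apart where MGCs are set beside the other cells. The 3 follicles that the study removed were left out, as was the CC library of small follicle S7, which held counts for 1066 genes only. This left 9 small, 8 medium and 10 large follicles, with 27 MGC, 26 CC and 27 oocyte libraries. Totals ranged from 26739954 to 39266980 counts in MGCs, from 8760201 to 40180192 in CCs and from 8442938 to 53173320 in oocytes. The study further named 10 of the 27 follicles as healthy, 3 small, 3 medium and 4 large, partly from the expression of marker genes in these same MGC libraries. The healthy set is thus itself defined from MGC expression. The follicles of each size class came from several cows, sampled in several batches. Which follicles share a cow or a batch is not given in the sources used here, so each p-value below measures the spread between follicles.

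An antral follicle is a fluid-filled cavity lined by MGCs, which divide under FSH and convert androgens into oestradiol. CCs are the granulosa cells that remain wrapped around the oocyte and exchange metabolites with it through gap junctions. As follicles grow past the small antral stage, most become atretic and granulosa cells of the dominant follicle acquire LH receptors.

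In MGCs the median level of ENSBTAG00000044027 was 39.8 CPM in small follicles (n = 9), 9.17 CPM in medium follicles (n = 8) and 17.4 CPM in large follicles (n = 10). Values in small follicles ran from 1.98 CPM in S2 to 163.7 CPM in S3. Those in medium follicles ran from 4.93 CPM in M5 to 37.97 CPM in M1, and those in large follicles from 0 in L6 to 64.3 CPM in L3. The 3 ranges overlapped, with all 8 medium libraries inside the range of the small ones and below their median. Of the 10 large libraries, 7 were below the median of the small ones. The fitted log2 fold change over the 27 follicles was -1.73 (SE 0.76) from small to medium, 0.55 (SE 0.72) from medium to large and -1.18 (SE 0.69) from small to large follicles. In bulk libraries, fewer cells that express a gene and less of its RNA per cell cannot be told apart.

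The library of L6 had no count for ENSBTAG00000044027 in 37626999 counts, which allows a level of up to 0.0797 CPM. S2, at 76 counts, was the other MGC library far below its stage. Without L6 the large median was 27.03 CPM and the log2 fold change from small to large follicles was -1.03. S3 stood at the other end, and without it the change was -1.33 from small to medium and -0.78 from small to large follicles.

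ENSBTAG00000002854 had a median MGC level of 43.3 CPM in small, 13.5 CPM in medium and 24.6 CPM in large follicles. Its small libraries ran from 27.6 CPM in S8 to 138.3 CPM in S3, the medium ones from 7.76 CPM in M6 to 44.7 CPM in M3 and the large ones from 9.90 CPM in L3 to 33.2 CPM in L7. The small and medium ranges overlapped, since M1, M2 and M3 stood between 38.1 and 44.7 CPM while the other 5 medium libraries were below every small one. In large follicles, 6 of 10 libraries were below every small one, and all 10 were below the small median. The log2 fold change was -1.51 (SE 0.36) from small to medium, 0.14 (SE 0.34) from medium to large and -1.37 (SE 0.33) from small to large follicles.

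**Figure D1:**
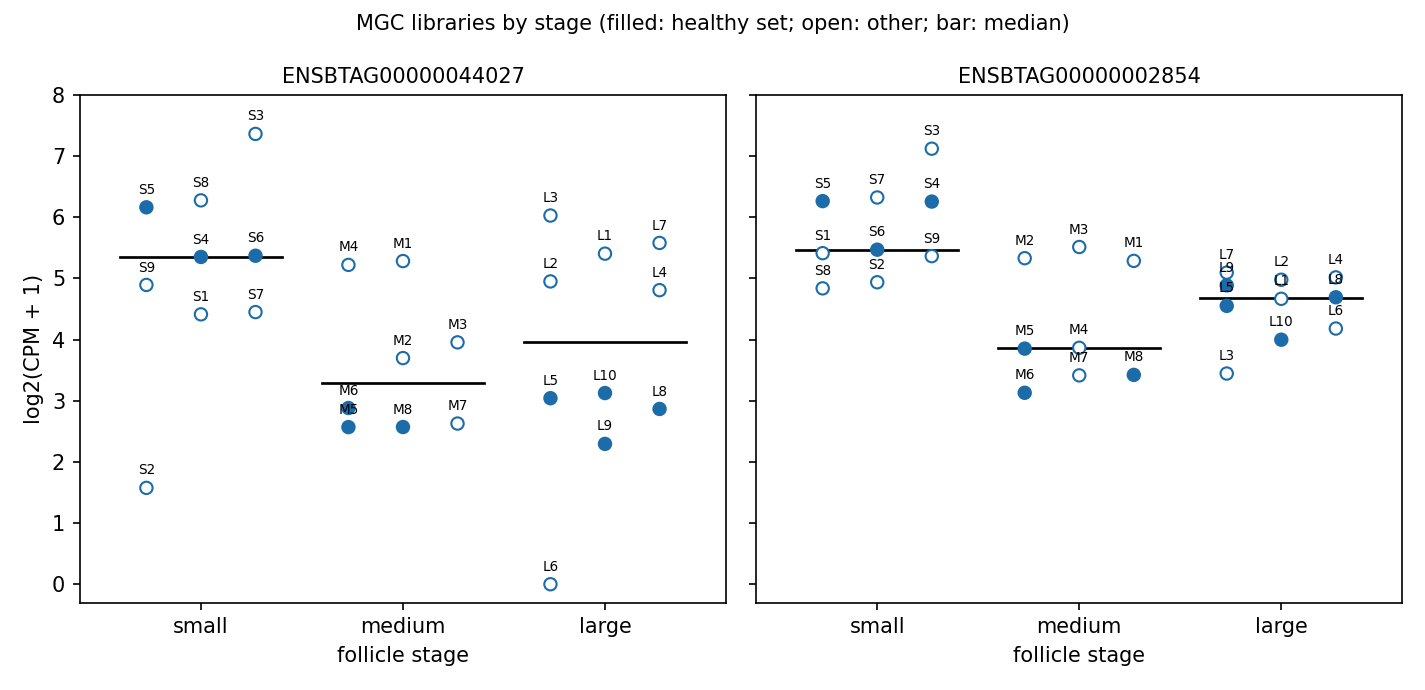
Level of each gene in every MGC library, as log2(CPM + 1) on the vertical axis, by follicle stage. Points are libraries named by follicle, filled for the healthy set and open for the others, and bars are medians over 9 small, 8 medium and 10 large follicles. The filled points of medium and large follicles lie below the filled points of small follicles for both genes, whereas the open points overlap across stages.

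Within the healthy set, small follicles did not overlap with medium or large ones. ENSBTAG00000044027 stood at 39.8, 70.7 and 40.4 CPM in small follicles S4, S5 and S6, and at 4.93, 6.37 and 4.94 CPM in medium follicles M5, M6 and M8. In large follicles L5, L8, L9 and L10 it stood at 7.23, 6.29, 3.91 and 7.73 CPM. Every healthy medium and large library was thus below every healthy small one, and the medium libraries lay inside the range of the large ones. ENSBTAG00000002854 stood at 75.5, 75.9 and 43.3 CPM in the same small follicles, and at 13.4, 7.76 and 9.73 CPM in the medium ones. In the large ones it was at 22.5, 24.9, 28.6 and 14.98 CPM, above all 3 medium libraries and below all 3 small ones. This complete separation was what 17.2% of the 15131 genes showed between healthy small and medium MGCs and 12.5% between healthy small and large MGCs, and both members were among them in each case. The genes were chosen on MGC levels by stage, so nothing is read from these counts.

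Outside the healthy set the stages were not fully separated for either gene. There, 1.06% of genes had every medium MGC library below every small one and 0.945% had every large one below, and neither member was among them. Over all retained follicles the shares were 0.152% and 0.291%, again without either member. Full separation is harder to reach with more libraries per group, so these shares are not set against those of the healthy set. The log2 fold change of ENSBTAG00000044027 from small to medium follicles was -3.29 (SE 0.35) in the healthy set and -1.17 (SE 1.01) in the other 17 follicles. For ENSBTAG00000002854 it was -2.71 (SE 0.31) in the healthy set and -0.998 (SE 0.47) in the others. Over the 27 follicles neither gene was lost after the small stage, since every medium and large MGC library held counts for both, except L6 for ENSBTAG00000044027.

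Follicles outside the healthy set carried more ENSBTAG00000044027 in MGCs at the later stages. In large follicles L1, L2, L3, L4 and L7 the gene stood at 41.4, 29.9, 64.3, 27.03 and 46.9 CPM, all above the highest healthy large library at 7.73 CPM. The sixth, L6, was below every healthy one. In medium follicles, M1, M2, M3 and M4 stood at 37.97, 12.0, 14.5 and 36.3 CPM, above all 3 healthy libraries, and M7 at 5.18 CPM lay among them. In small follicles the order was mixed, with 2 of 6 libraries outside the healthy set above its range and 4 below. ENSBTAG00000002854 showed the same count in small and medium follicles, 2 of 6 and 4 of 5 above the healthy range, and 3 of 6 above it in large follicles. Because the healthy set was drawn from MGC expression, these differences are not tested.

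The healthy small follicles share the identifier prefix 620, which no other follicle carries, and the first 3 digits of the follicle number are not explained in the labels. In the healthy set the small stage and this prefix thus cannot be told apart, in any cell type. The comparisons within a prefix below leave these follicles out, and the fit with the prefix takes no stage change from them. Prefixes that small follicles share with a later stage allow a comparison within a prefix. Under prefix 505, ENSBTAG00000044027 stood at 20.3, 163.7 and 76.6 CPM in small follicles and at 0 in the single large one. Under prefix 705 the order was opposite, with 1.98 CPM in the small follicle against 14.5 CPM in the medium and 29.9 and 7.73 CPM in the large ones. The small follicle was higher than the large one under prefix 707, at 20.9 against 7.23 CPM, and lower than the medium one under prefix 717, at 28.7 against 36.3 CPM. ENSBTAG00000002854 was lower in the later stage under 505, 707 and 717, whereas under 705 the small library at 29.7 CPM lay between the large ones at 30.5 and 14.98 CPM and below the medium one at 44.7 CPM. With the prefix as a covariate, the fitted changes from small to medium follicles were -1.13 (SE 1.74) for ENSBTAG00000044027 and -1.08 (SE 0.59) for ENSBTAG00000002854.

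The spread of ENSBTAG00000044027 among follicles of one stage was wide. Its within-stage SD of log2(CPM + 1) over the 27 MGC libraries was 1.61, larger than that of 98.2% of genes, against a median of 0.48 over the 15131 genes. For ENSBTAG00000002854 it was 0.76, larger than that of 78.2% of genes. Both levels follow the same libraries only in part, with a Pearson r of log2(CPM + 1) between them of 0.52 over the 27 MGC libraries, 0.25 over the 26 CC libraries and -0.29 over the 27 oocyte libraries. These r are descriptions over libraries that share stage and follicle.

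The CC libraries were not used in choosing the genes, and their stage comparison was tested with edgeR. It asks whether levels in the cumulus cells around the oocyte differ between stages. No MGC value enters it, so whether CCs follow the mural layer of the same follicle was not tested. In CCs, ENSBTAG00000044027 had medians of 9.95 CPM in small (n = 8), 7.17 CPM in medium (n = 8) and 6.98 CPM in large follicles (n = 10). Small libraries ran from 1.65 CPM in S1 to 36.0 CPM in S5, medium ones from 4.18 CPM in M6 to 12.0 CPM in M3 and large ones from 2.80 CPM in L5 to 37.97 CPM in L7. S4, S5 and S8 were above every medium library, and the ranges of the 3 stages overlapped. The change from small to medium follicles was -0.95 on the log2 scale (SE 0.50, 95% interval -1.92 to 0.02, adjusted p = 0.447). Neither the change from medium to large (0.43, SE 0.47, adjusted p = 0.871) nor that from small to large follicles (-0.52, SE 0.46, adjusted p = 0.527) passed the threshold.

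ENSBTAG00000002854 had CC medians of 29.4 CPM in small, 19.0 CPM in medium and 21.2 CPM in large follicles. Small libraries ran from 2.09 CPM in S9 to 56.4 CPM in S4, medium ones from 8.41 CPM in M5 to 136.3 CPM in M3 and large ones from 2.34 CPM in L5 to 88.4 CPM in L3. M2 and M3, at 70.5 and 136.3 CPM, and L1 and L3, at 88.0 and 88.4 CPM, exceeded every small CC library. The mean levels of 29.4, 37.9 and 34.7 CPM were thus ordered differently from the medians, and the fitted change from small to medium follicles was 0.24 (SE 0.58, 95% interval -0.90 to 1.39, adjusted p = 0.931). The changes from medium to large and from small to large follicles were -0.10 (SE 0.55, adjusted p = 0.985) and 0.14 (SE 0.56, adjusted p = 0.912).

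The threshold for a call was a fold change above 2 together with an adjusted p under 0.05. Neither gene was called in CCs in any of the 3 contrasts, where edgeR called 0% of 15106 genes from small to medium, 0% from medium to large and 3.34% from small to large follicles. The first 2 contrasts held 1810 and 1164 genes with an unadjusted p under 0.05, neither member among them, and DESeq2 called 38 and 18 genes. In DESeq2 ENSBTAG00000044027 reached an unadjusted p of 0.0493 from small to medium follicles, with an adjusted p of 0.353.

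Among the healthy follicles alone, the CC libraries of small follicles were above those of medium ones for both genes. ENSBTAG00000044027 stood at 33.4, 36.0 and 9.93 CPM in S4, S5 and S6 against 6.28, 4.18 and 6.99 CPM in M5, M6 and M8. ENSBTAG00000002854 stood at 56.4, 38.1 and 45.3 CPM against 8.41, 17.3 and 15.8 CPM. Such separation was found in 13.5% of genes from small to medium follicles, and the edgeR changes of -2.06 (SE 0.64, adjusted p = 0.475) and -1.63 (SE 0.67, adjusted p = 0.519) did not pass. Against the 4 healthy large follicles, where 8.42% of genes separated, neither gene did, since L9 stood at 11.2 and 38.8 CPM.

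In oocytes both genes were uneven between follicles. ENSBTAG00000044027 had medians of 2.14 CPM in small (n = 9), 4.40 CPM in medium (n = 8) and 5.65 CPM in large follicles (n = 10), with highest values of 26.8 CPM in S9, 11.2 CPM in M7 and 19.0 CPM in L1. It had no count in 7 of 27 oocytes, 3 from small, 1 from medium and 3 from large follicles, and 0 counts allowed levels of up to 0.0667 to 0.133 CPM there. These limits cover counting error only, since amplified reads without molecular identifiers are not independent molecules. Oocytes with and without counts thus occurred at every stage, and the ranges overlapped. The change from small to medium follicles was -0.38 (SE 1.23, 95% interval -2.78 to 2.02, adjusted p = 0.946) and that from small to large 0.21 (SE 1.16, adjusted p = 0.959).

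ENSBTAG00000002854 was counted in 26 of 27 oocytes, with L2 at 0 and an upper limit of 0.0818 CPM. Its medians were 7.84 CPM in small, 4.68 CPM in medium and 4.68 CPM in large follicles. Small oocytes ran from 0.907 CPM in S5 to 25.0 CPM in S8, medium ones from 3.22 CPM in M7 to 7.96 CPM in M5 and large ones up to 20.6 CPM in L9. The medium oocytes were the most even group and lay inside the range of both others. The change from small to medium follicles was -0.99 (SE 0.71, 95% interval -2.38 to 0.40, adjusted p = 0.566) and that from small to large -0.68 (SE 0.66, adjusted p = 0.631). From medium to large follicles, the 2 genes changed by 0.59 (SE 1.204) and 0.31 (SE 0.69), both with an adjusted p of 1 from edgeR. Neither gene was called in oocytes, where edgeR called 0.0737%, 0% and 1.51% of 14934 genes in the 3 contrasts. For medium to large follicles, 784 genes had an unadjusted p under 0.05, neither member among them, and DESeq2 called 0.

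**Figure D2:**
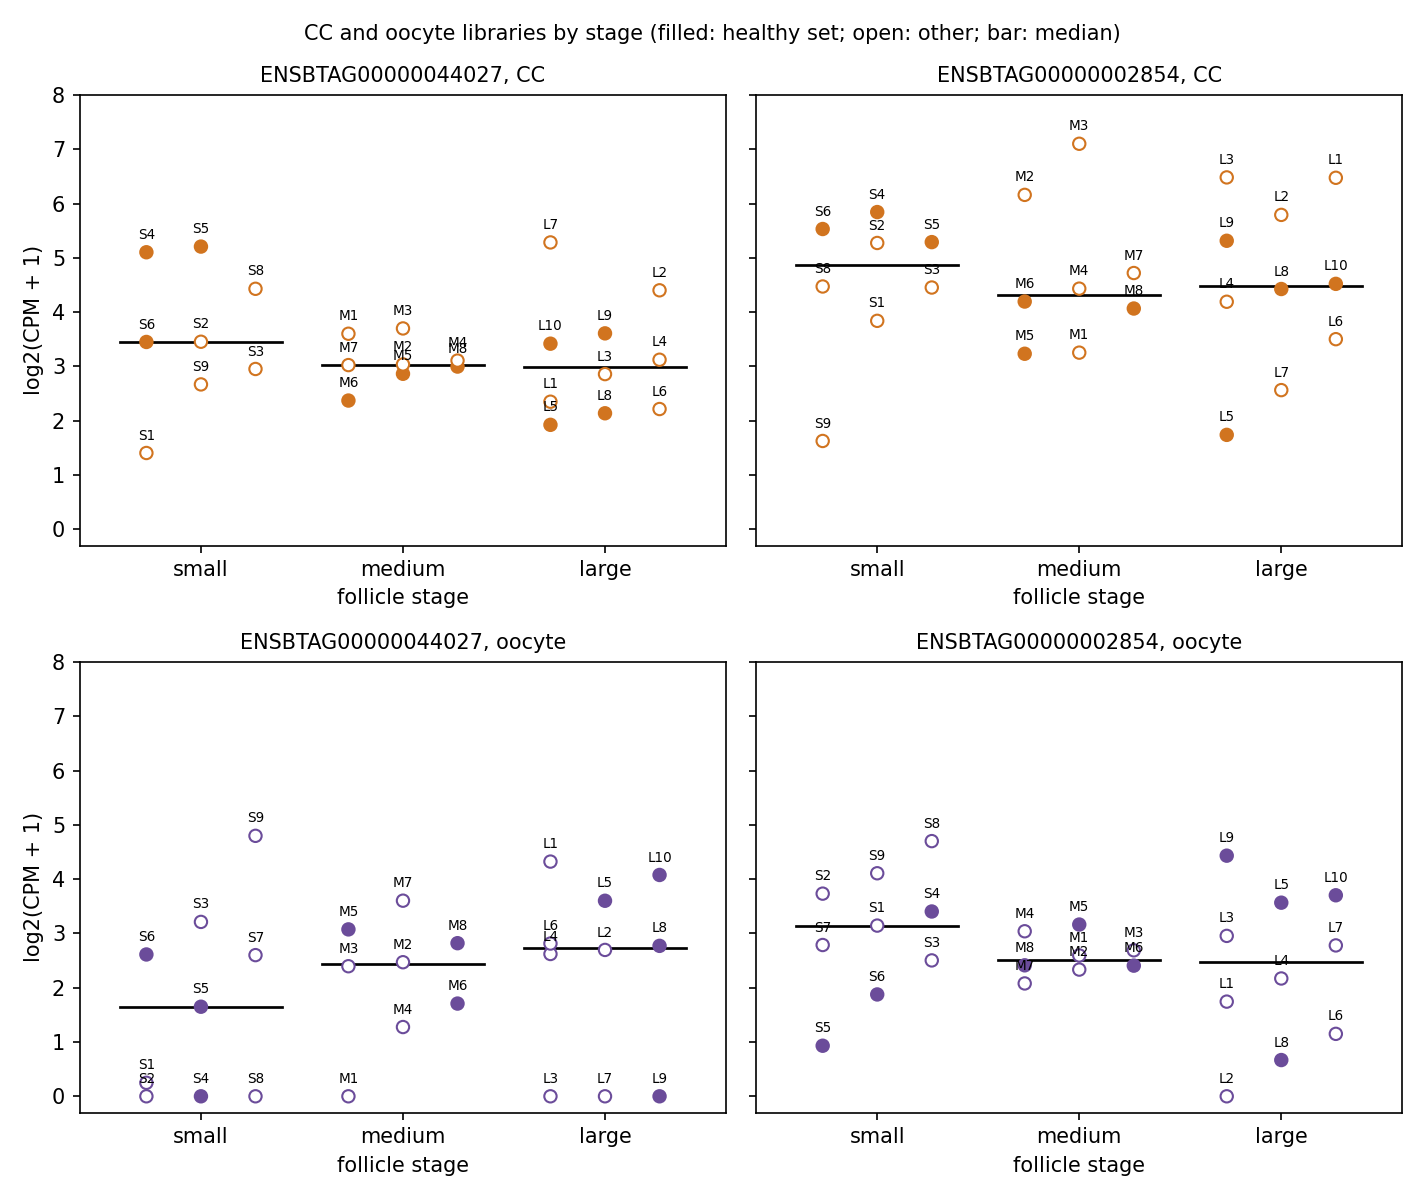
Level of each gene in every CC library (upper panels) and oocyte library (lower panels), as log2(CPM + 1), by follicle stage. Points are libraries named by follicle, filled for the healthy set, and bars are medians. The stages overlap in every panel, and 7 oocytes lie at 0 for ENSBTAG00000044027.

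**Figure D3:**
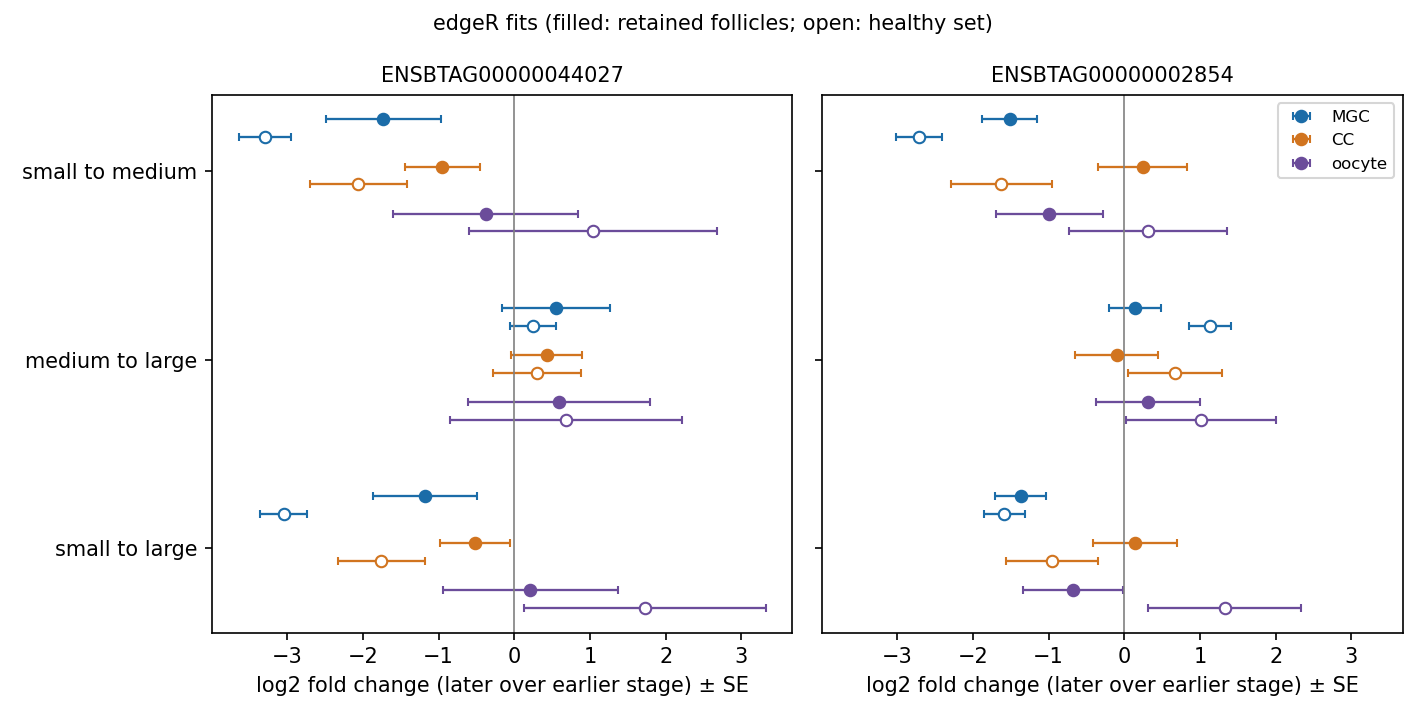
Fitted log2 fold change of each gene between stages in MGCs, CCs and oocytes, with bars of 1 SE. Filled points are fits over the retained follicles and open points over the healthy set. From small to medium follicles the MGC points lie below 0 in both sets, whereas the oocyte points change sign between the sets for both genes.

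CCs and oocytes were both amplified by SMART-seq2, and their levels were compared within each stage. The input was a pool of CCs against a single oocyte, and per the study's methods oocytes had more PCR cycles, so amplification and cell type cannot be told apart here. ENSBTAG00000002854 was higher in CCs at every stage, by 1.87 on the log2 scale in small (SE 0.67, adjusted p = 0.0115), 3.30 in medium (SE 0.74, adjusted p = 0.000103) and 2.79 in large follicles (SE 0.64, adjusted p = 0.000137). By CPM from column totals, its CC library exceeded the oocyte library in 22 of 26 follicles, the exceptions being S8, S9, L5 and L7. With CPM scaled by TMM over all cell types, S8 (24.3 in CCs against 17.1) and L7 (5.88 against 4.50) were higher in CCs too. S9 and L5 remained exceptions, and no follicle turned the other way. Calls with the higher level in CCs covered 32.7%, 33.5% and 34.7% of 15130 genes in small, medium and large follicles, so such a call was common. In the healthy set alone the difference held in small follicles (3.70, SE 1.02, adjusted p = 0.00496) but not in medium (1.73, SE 0.94, adjusted p = 0.126) or large ones (1.48, SE 0.81, adjusted p = 0.117).

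By CPM from column totals, ENSBTAG00000044027 was higher in CCs than in the oocyte in 17 of 26 follicles. With CPM scaled by TMM, S3 (9.13 in CCs against 7.45), M5 (6.93 against 5.85) and L6 (5.75 against 5.40) were higher in CCs too. No follicle turned the other way. The log2 differences from edgeR were 1.65 in small (SE 0.99, adjusted p = 0.129), 1.25 in medium (SE 1.02, adjusted p = 0.272) and 1.11 in large follicles (SE 0.90, adjusted p = 0.266). None passed the threshold, and the 95% interval in small follicles ran from -0.28 to 3.58. With the follicle as a replicate block, the small difference was 4.33 (SE 1.91, adjusted p = 0.0462) and passed, whereas those in medium and large follicles, 1.55 and 1.41, did not. Whether the difference between CCs and oocytes varied with stage was tested without the follicle block only. Neither gene was called in that interaction test, which called only 0.0529% of 15130 genes between small and medium follicles and 0.0727% between medium and large ones. It takes no account of CC and oocyte libraries that share a follicle, and the blocked differences were not tested for a change with stage. From small to medium follicles the interaction was -0.40 (SE 1.40, adjusted p = 0.982) for ENSBTAG00000044027 and 1.43 (SE 0.95, adjusted p = 0.669) for ENSBTAG00000002854, with 95% intervals of -3.14 to 2.33 and -0.43 to 3.29. From medium to large follicles it was -0.14 (SE 1.34) and -0.50 (SE 0.91), both with an adjusted p of 0.9999 from edgeR.

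MGC levels were set beside those of the other cells of the same follicle as a description. ENSBTAG00000044027 was higher in MGCs than in CCs in 19 of 26 follicles, 7 of 8 small, 5 of 8 medium and 7 of 10 large ones. Against the oocyte it was higher in MGCs in 21 of 27 follicles, including all 9 small ones. ENSBTAG00000002854 was higher in MGCs than in the oocyte in all 27 follicles, but was higher in MGCs than in CCs in only 13 of 26. That balance was 6 of 8 in small, 2 of 8 in medium and 5 of 10 in large follicles.

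**Figure D4:**
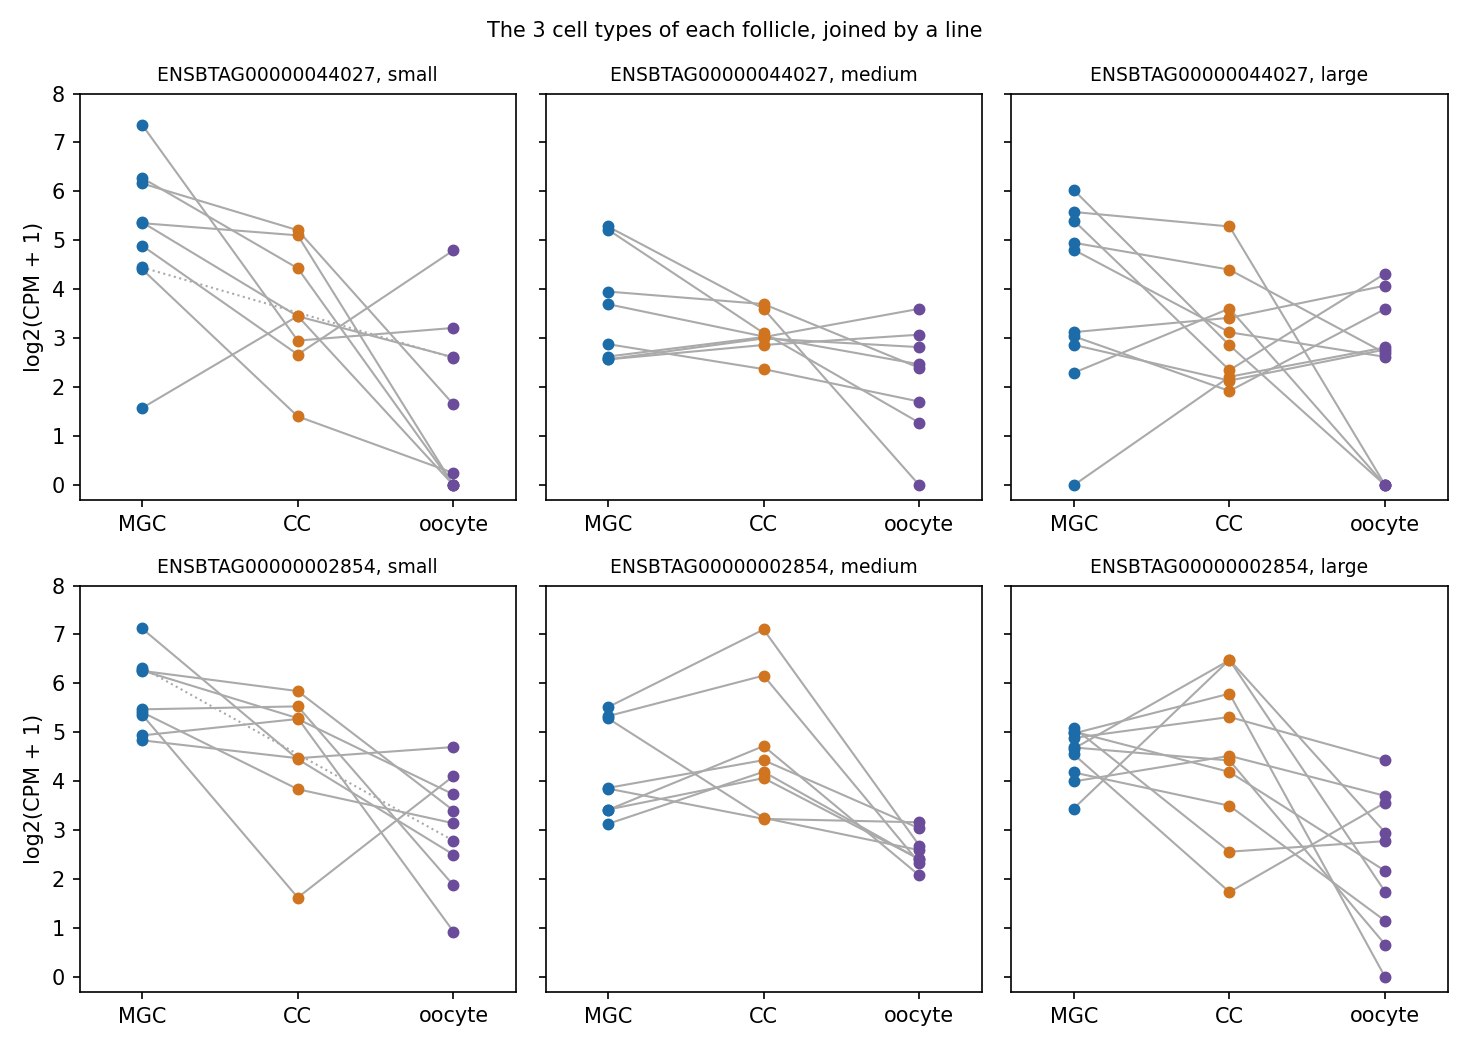
Level of each gene, as log2(CPM + 1), in MGCs, CCs and the oocyte of each follicle, by stage. Each line joins the 3 libraries of 1 follicle, dotted for S7, whose CC library was left out. For ENSBTAG00000002854 all 27 lines end lower in the oocyte than they start in MGCs, and 13 of 26 rise from MGCs to CCs.

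Ordered by median over the 9 combinations of cell type and stage, ENSBTAG00000044027 was highest in small MGCs, then in large MGCs, small CCs, medium MGCs, medium CCs, large CCs, and large, medium and small oocytes. The order of ENSBTAG00000002854 was small MGCs, small CCs, large MGCs, large CCs, medium CCs, medium MGCs, and small, large and medium oocytes. All 8 pairs of neighbours in each order had overlapping ranges. Both genes thus had their highest median in MGCs of small follicles and their lowest in an oocyte group. The choice of the genes favours small over later MGCs, and MGC libraries were made by another protocol. Nothing is therefore read from the place of MGCs in these orders. Among all 15131 genes, the median MGC level of ENSBTAG00000044027 exceeded that of 74.1% of genes in small follicles, 41.5% of them in medium and 53.5% in large ones, and that of ENSBTAG00000002854 exceeded 76.1%, 48.0% and 61.2%.

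The 5 genes whose log2(CPM + 1) followed each member most closely over the 27 MGC libraries were found by Pearson's r. For ENSBTAG00000044027, r ranged from 0.870 to 0.946, and all 5 genes had their lowest MGC level in L6, the library where the member had no count. The gene at 0.946 had medians of 7.73, 2.07 and 2.22 CPM in small, medium and large follicles, was also at 0 in L6 and is listed 2 rows away in the deposited table. Whether the 2 rows share reads was not tested. For ENSBTAG00000002854, r ranged from 0.740 to 0.807, and 4 of the 5 genes were highest in S3, where the member was highest as well. In both sets all 5 genes had lower medians in medium and in large than in small MGCs. These genes were picked for likeness, over the same libraries, to members chosen for that fall. Shared stage medians and shared extreme libraries are thus largely given by the choice, and nothing is read from them.

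**Figure D5:**
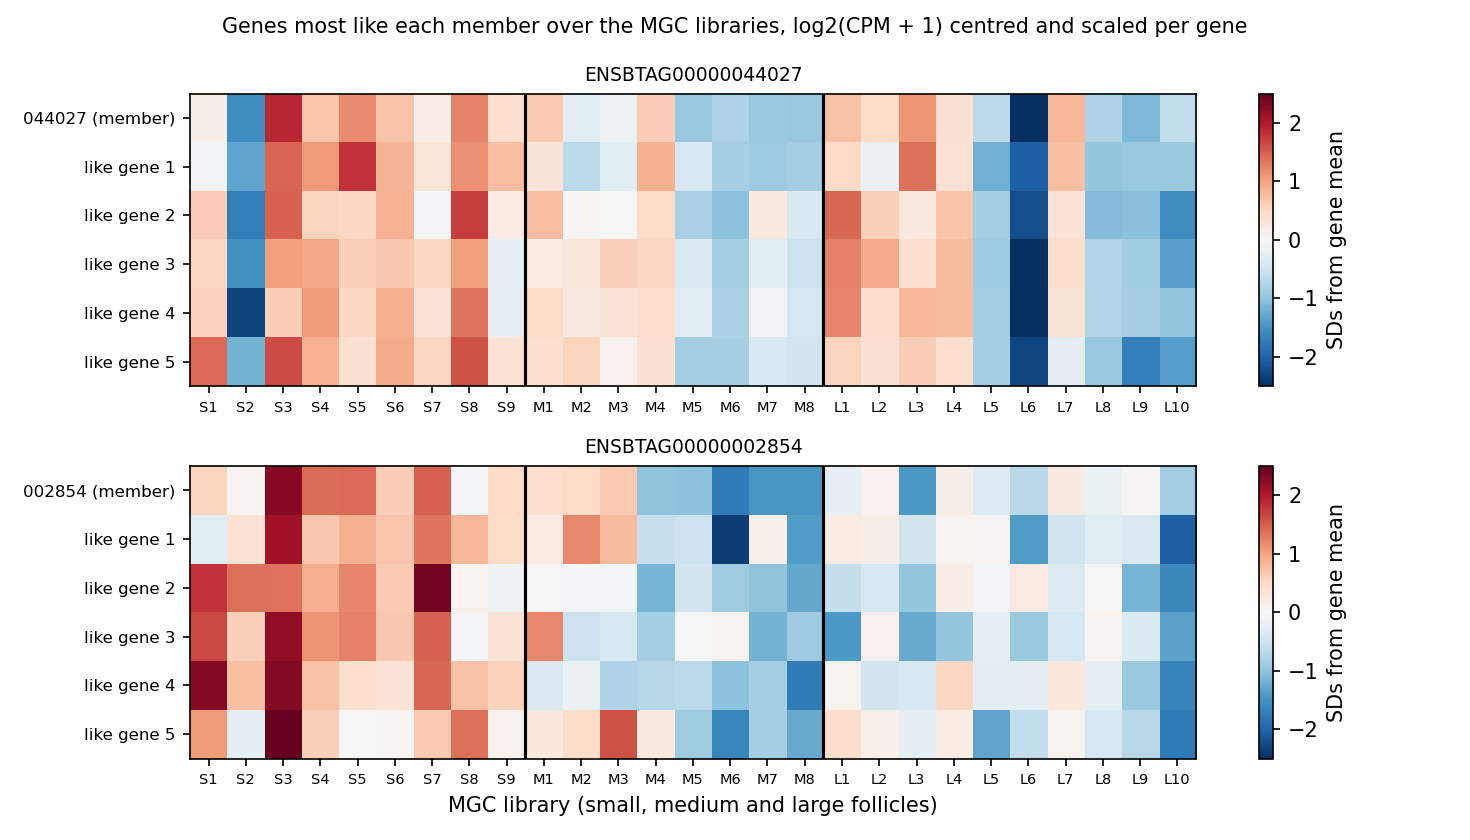
Each member and the 5 genes most like it over the 27 MGC libraries. Colour gives log2(CPM + 1) in SDs from that gene's mean, columns are libraries in order of stage, and black lines part the stages. L6 is the lowest column for ENSBTAG00000044027 and its 5 like genes, and S3 is the highest column for ENSBTAG00000002854 and 4 of its 5.

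The 3 removed follicles were not part of these values. In their MGC libraries ENSBTAG00000044027 stood at 23.5 CPM in the small follicle and at 30.6 and 10.1 CPM in the medium ones, and ENSBTAG00000002854 at 20.03 CPM and at 13.4 and 71.5 CPM. Both of the removed medium oocytes had no count for either gene, with upper limits of 0.150 and 0.168 CPM from counting error only. The study excluded the 3 follicles for mapping rate and mitochondrial reads, so these zeros are not read as absence of either RNA.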

How the data were processed

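The deposited table holds raw counts of reads per Ensembl gene without normalization. The submitters' processing notes name ARS-UCD1.2, HISAT2 2.2.1 and featureCounts of Subread, whereas the study's methods name another aligner, and which made the counts was not settled. CPM were computed from column totals. Genes that exceeded 1 CPM in 15 or more libraries of any cell type were fitted in edgeR 4.0.16 (R 4.3.3) with TMM, glmQLFit and glmQLFTest. Stage changes came from a separate fit for each cell type. Differences between CCs and oocytes, and their change with stage, came from a joint fit of the CC and oocyte libraries of all stages. Benjamini-Hochberg adjustment was over all genes fitted. DESeq2 1.42.0, other filters and scalings, other sets of follicles, the identifier prefix and leaving out follicles were alternatives. Simulated counts with planted changes were run for CCs and for oocytes from small to medium follicles and for CCs against oocytes in small follicles. The MGC, healthy-set, replicate block and interaction fits were not simulated. No result above rests on these runs. Plots were drawn with matplotlib 3.10.9.

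The members and lists were chosen with earlier results of these data known. The genes described were the members and, without names, the 5 genes most like each. Marker lists could not be run without symbols, so the labelled cell types were not checked against markers. The replicate block rests on the follicle number that the CC and oocyte titles share. Deviations from the group means correlated within 26 pairs with r of -0.083 to 0.312 (median 0.095). No follicle belongs to 2 stages, so stage comparisons were unpaired.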

Additional observations from a re-analysis of the deposited data

Results flagged for a closer look

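In 4 of the 18 groups of one gene, cell type and stage, 1 library stood apart by Dixon's test at the 95% level, run on unlogged CPM. A rate of about 1 group in 20 by chance holds for normally distributed values, which unlogged CPM need not be. The test was not run on log2(CPM + 1), so the flags only mark libraries for a closer look. The S3 flags also fall in libraries used to choose the genes. In MGCs of small follicles, S3 was the library that stood apart for both genes, at 163.7 CPM for ENSBTAG00000044027 and 138.3 CPM for ENSBTAG00000002854, and the gap to the next library was 0.539 and 0.535 of the group's range. For ENSBTAG00000044027, the CC library of L7 stood apart at 37.97 CPM (0.507 of the range) and the oocyte of S9 at 26.8 CPM (0.692 of the range). Leaving out S3 gave small MGC medians of 34.3 and 42.5 CPM.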

How the results depend on the processing

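None of the 228 alternative fits of the stage changes in CCs and oocytes called either gene, but 70 had the opposite sign to the value given above. Most of these 70 were fits over the healthy follicles, whole or with each left out in turn. Such fits share most of their libraries and are not independent of one another. Over the 10 healthy follicles the signs turned in CCs for ENSBTAG00000002854 (-1.63, 0.67 and -0.96 from small to medium, medium to large and small to large follicles) and in oocytes from small to medium for both genes (1.04 and 0.31) and from small to large for ENSBTAG00000002854 (1.32). Leaving out each healthy follicle in turn gave ranges of -1.85 to -1.37, 0.25 to 1.04 and -1.39 to -0.59 for those CC changes, of 0.46 to 2.18 and -0.19 to 1.57 for the oocyte changes from small to medium, and of 0.81 to 2.58 for the last. Over the 17 other follicles, an alternative added after the data were seen, as was the prefix covariate in MGCs, signs turned for ENSBTAG00000044027 from small to large in CCs (0.38) and oocytes (-0.38) and for ENSBTAG00000002854 from medium to large in oocytes (-0.60). The prefix as a covariate turned ENSBTAG00000044027 in CCs from medium to large (-0.10) and in oocytes from small to medium (0.54), and all 30 follicles turned ENSBTAG00000002854 in CCs from medium to large (0.025). Causes were not tested.

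Of 42 alternatives to the CC against oocyte differences, 38 kept their side of the threshold. The replicate block (4.33) and the healthy set (3.66) brought ENSBTAG00000044027 past it in small follicles, and the healthy set lost ENSBTAG00000002854 in medium (1.73) and large ones (1.48), with fewer samples. The replicate block changed no other call. In MGCs an alternative counted as moved when it shifted by the within-stage SD or more. For fold changes that SD was 1.61 for ENSBTAG00000044027 and 0.76 for ENSBTAG00000002854. By this rule the healthy set moved ENSBTAG00000002854 to -2.71 for the first and 1.13 for the second of the 3 stage contrasts. It moved ENSBTAG00000044027 to -3.05 from small to large, which was -0.53 (SE 0.94) in the 17 other follicles and -0.42 (SE 1.75) with the prefix covariate. The healthy set also took ENSBTAG00000044027 from -1.73 to -3.29 from small to medium, a shift below its SD. The 17 other follicles moved the medium median of ENSBTAG00000002854 to 38.1 CPM. Leaving out each of the 27 follicles gave MGC changes from small to medium of -2.08 to -1.33 and -1.70 to -1.32. DESeq2 called 1353 genes in CCs from small to large follicles, against 505 in edgeR, and 37 in oocytes from small to medium, against 11. The shallowest oocyte library, M4, had 12 counts of ENSBTAG00000044027 in 8442938, whereas the 7 oocytes at 0 were deeper.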
